A study of Sus scrofa with 9 samples.

Results

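The 10 genes described here encode proteins of the smooth muscle contractile apparatus, several of which also mark the myofibroblast: ACTA2, ACTG2, ACTA1, TAGLN, CNN1, MYH11, DES, LMOD1, MYLK and TPM2. They were taken by symbol from the 19535 gene entries of the deposited table, 10 of 10 were found, and they were chosen on their measured levels in the 3 treatment groups of this same table. Those levels, and the fold changes and calls made from them, are therefore given as a description, with no p-value and nothing concluded from a call. The cells were porcine valvular interstitial cells (PVICs), the resident stromal cells of the aortic valve leaflet, isolated from wild type pigs aged 4 to 5 months and used after a small number of passages. The control group was kept in DMEM. The osteogenic group (OIM) was kept in medium with insulin, ascorbic acid at 50 µg/mL and sodium dihydrogen phosphate at 2 mmol/L, and the bFGF group was kept in the same osteogenic medium with 50 ng/mL basic fibroblast growth factor, a mitogen of mesenchymal cells. Each group had 3 libraries, and the labels give 3 days of culture whereas the methods of the study give a shorter time. The comparison of OIM with control asks what the calcifying medium changed, and the comparison of bFGF with OIM asks what the growth factor changed within that medium.

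Smooth muscle shortens when myosin filaments, activated by phosphorylation of their light chain, pull on filaments of smooth muscle actin that are anchored in dense bodies and tied to the cell surface. Fibroblasts and valve interstitial cells that become myofibroblasts take up part of this program, and α-smooth muscle actin in stress fibres is its usual marker in the valve. Many genes of the program carry CArG boxes near their start, which bind serum response factor (SRF) together with coactivators of the myocardin family.

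The libraries held 57075793 to 64723837 gene counts in control, 57682710 to 67371523 in OIM and 46773376 to 48270827 in bFGF. Levels are given as CPM, the share of a gene in its library total on the usual scale, after scaling of the totals by TMM, the trimmed mean of M-values. OIM replicate 2 stood apart: its mean chi-square per gene was 18.4 against each other OIM library, whereas OIM replicates 1 and 3 gave 5.79. It also had the lowest OIM level of all 10 genes. The ratio of OIM to control is therefore given below with and without it for ACTA2, ACTG2, ACTA1, MYH11 and DES. Without it that ratio was 1.157 for TAGLN, 1.529 for CNN1, 1.23 for TPM2, 1.306 for LMOD1 and 1.315 for MYLK. The OIM means include it. The interstitial markers VIM, COL1A1, COL1A2, PDGFRA, PDGFRB, DCN and LUM were all detected, with means of 213.7 to 27002 CPM across the groups. Nothing in the labels says that the 3 libraries of a group came from separate pigs or cultures, so the p-values measure the spread between these libraries, which may be technical.

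The promoters are shown first because the contractile program is known for its SRF sites. Each line gives the 200 bases before an annotated transcript start, 5′ to 3′ on the strand of the gene, from the reference assembly Sscrofa11.1 with RefSeq annotation. Capitals mark a CArG box, which is CC, then A or T in 6 positions, then GG, or a stretch with 1 letter off that pattern.
CNN1, chr2:70184282-70184481, plus strand, 1 exact box: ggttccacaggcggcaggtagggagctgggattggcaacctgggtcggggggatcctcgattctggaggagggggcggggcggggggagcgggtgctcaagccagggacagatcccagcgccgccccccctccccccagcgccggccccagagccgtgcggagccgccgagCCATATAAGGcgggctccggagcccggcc
ACTA2, chr14:100886733-100886932, minus strand, 2 boxes with 1 letter off: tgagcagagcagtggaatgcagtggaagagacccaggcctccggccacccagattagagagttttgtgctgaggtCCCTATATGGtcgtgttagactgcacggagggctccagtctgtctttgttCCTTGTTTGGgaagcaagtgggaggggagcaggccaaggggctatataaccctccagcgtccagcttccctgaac
ACTG2, chr3:69121543-69121742, minus strand, 3 boxes with 1 letter off: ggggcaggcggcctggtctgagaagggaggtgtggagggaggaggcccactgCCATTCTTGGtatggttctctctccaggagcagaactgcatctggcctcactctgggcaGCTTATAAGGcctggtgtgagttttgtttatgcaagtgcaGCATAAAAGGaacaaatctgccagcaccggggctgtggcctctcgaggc
For ACTA1, whose annotated starts lie close together, only the exact box and its flanks are shown, chr14:60412837-60412866, plus strand: tgcccaacacCCAAATATGGctcgagaagg

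Counted from the transcript start, the CNN1 box begins at -29 and the ACTA2 stretches at -125 and -75. The search took both strands of windows from 250 bases before to 50 bases after every annotated transcript start. Promoters of 9 of the 10 genes are described. An exact CArG box lay in at least 1 window of 2 of these 9 genes (22.2%), compared with 484 of 19529 annotated genes (2.48%). A stretch within 1 letter was found for 4 of the 9 genes (44.4%), compared with 28.8% of all genes. By window rather than by gene, 4 of 28 windows of the 9 genes (14.3%) and 1.46% of 45955 windows in all held an exact box. Windows of 1 gene overlap where its starts are close. The windows of MYH11, DES, LMOD1, MYLK and TPM2 held neither form, which says only that these letters are absent there. A match of letters is not evidence that SRF is bound.

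**Figure D1:**
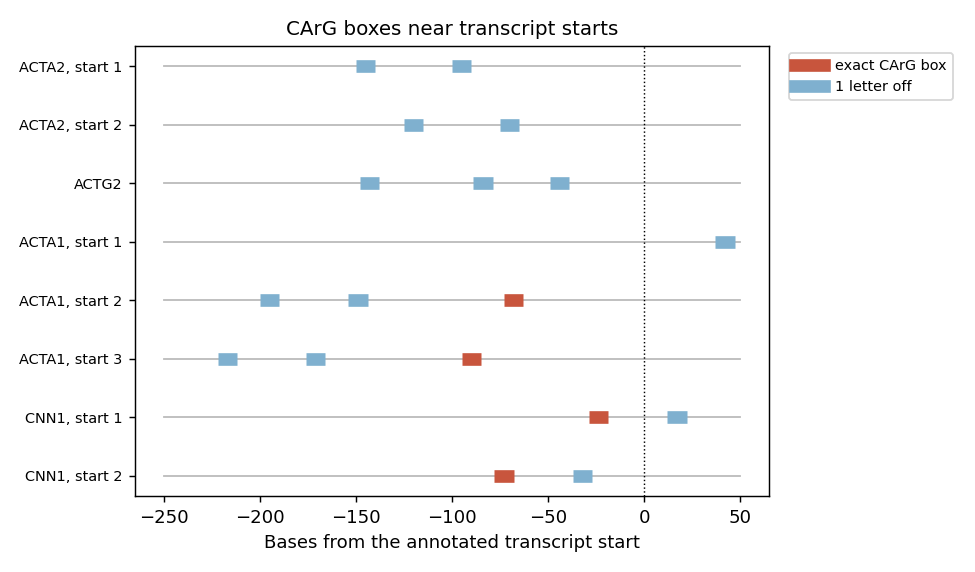
Positions of CArG boxes in the windows of the 4 genes described that had a match, in bases from each annotated transcript start (dotted line). Red bars are exact boxes and blue bars have 1 letter off; exact boxes occur in ACTA1 and CNN1, and only stretches with 1 letter off in ACTA2 and ACTG2.

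Of the 10 genes, 3 encode actins that resemble each other closely, so the start of their coding sequences is given to show how far reads can tell them apart. Capitals in the lower sequences mark bases that differ from ACTA2 in the alignment.
ACTA2, coding bases 1 to 60: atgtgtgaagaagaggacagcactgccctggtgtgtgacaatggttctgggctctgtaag
ACTG2, coding bases 1 to 57: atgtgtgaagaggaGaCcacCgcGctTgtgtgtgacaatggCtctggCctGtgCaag
ACTA1, coding bases 1 to 60: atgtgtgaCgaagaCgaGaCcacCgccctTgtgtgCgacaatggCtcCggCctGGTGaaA
Over these stretches ACTG2 differed from ACTA2 at 9 bases and by a gap of 3 bases, and ACTA1 differed at 15. Over the whole coding sequence the identity with ACTA2 was 84.5% for ACTG2 and 86.9% for ACTA1. No stretch of 125 bases, the shorter read length in the labels, was shared exactly between any pair of ACTA2, ACTG2, ACTA1, ACTC1, ACTB and ACTG1, but the handling of reads with mismatches is not given in the sources used here. The longest exact stretch shared by ACTA2 with ACTG2, and by ACTA2 with ACTA1, was 35 bases.

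All 10 genes had their lowest level in bFGF. In each of them every bFGF library lay below every OIM library and below every control library, which held for 35.8% and 37.3% of all genes tested. The ratio of mean levels between OIM and bFGF ran from 2.31 for TPM2 to 50.0 for MYH11 among the 8 genes with more than 9 counts in bFGF. The OIM means were above the control means for all 10 genes, with ratios of 1.09 for TAGLN to 10.2 for DES, and the OIM and control libraries separated completely for ACTG2, CNN1, MYH11 and DES. In bulk RNA, fewer cells that express a gene and less RNA per cell cannot be told apart.

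**Figure D2:**
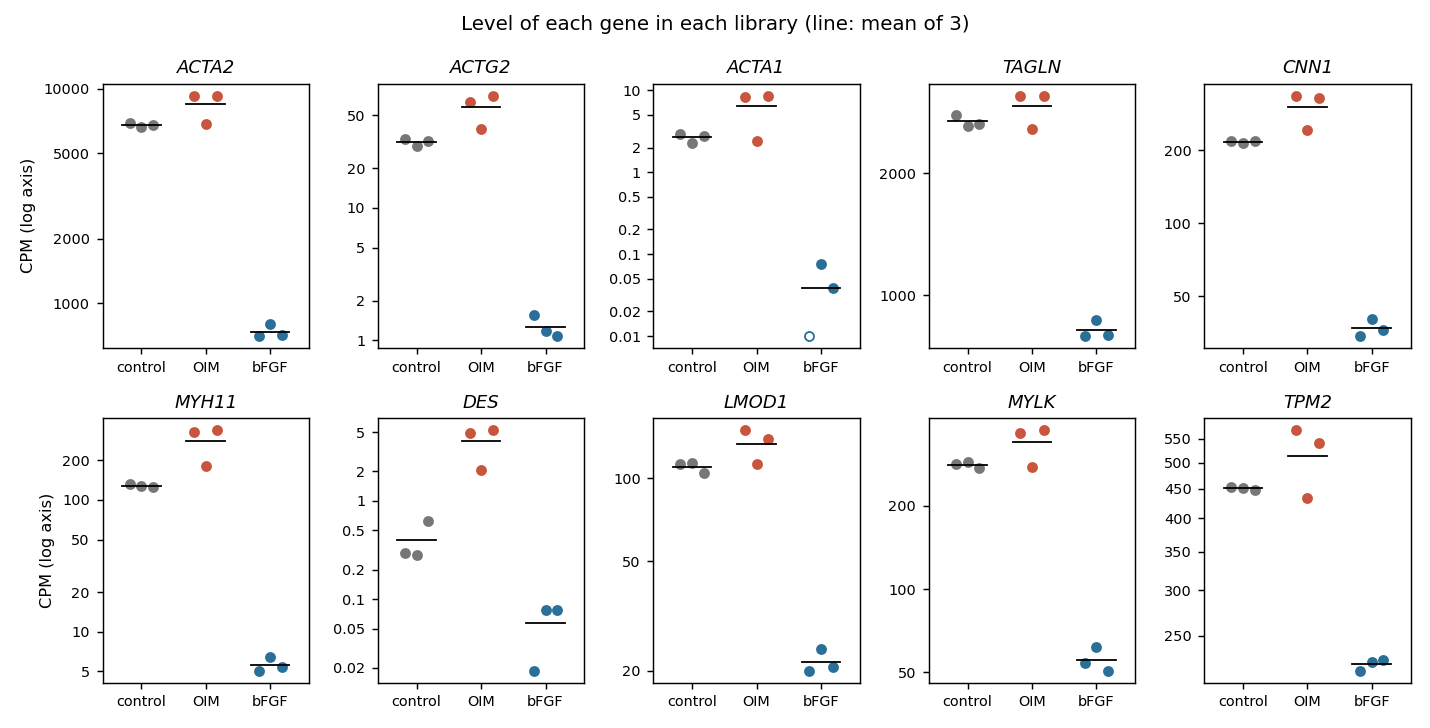
Level of each gene in CPM (log axis, with its own range in each panel) in the 3 control, 3 OIM and 3 bFGF libraries, drawn left to right as replicates 1, 2 and 3, with a line at the mean. The open circle for ACTA1 is a library with 0 counts, drawn at 0.01; every bFGF point lies below every other point of its panel, and the middle OIM point, replicate 2, is the lowest of its group.

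ACTA2 (chr14:100868145-100886732, minus strand) encodes α-smooth muscle actin, the defining actin of vascular smooth muscle and of myofibroblasts. Its levels were 6960, 6610 and 6791 CPM in control, 9210, 6852 and 9286 CPM in OIM, and 704.1, 799.1 and 711.8 CPM in bFGF. OIM replicate 2 lay among the control libraries and the other OIM libraries lay above them, while bFGF stood far below both groups. The mean was 6787 ± 175 CPM (SD, n = 3) in control, 8449 ± 1384 in OIM and 738.3 ± 52.8 in bFGF, which is 11.4-fold lower than in OIM and 9.19-fold lower than in control. Without OIM replicate 2, the ratio of OIM to control was 1.36 in place of 1.24.

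ACTG2 (chr3:69097366-69121542, minus strand) encodes γ-smooth muscle actin, the main actin of visceral smooth muscle. Control libraries had 33.2, 29.4 and 32.3 CPM, OIM libraries 63.5, 39.2 and 70.5 CPM, and bFGF libraries 1.55, 1.17 and 1.08 CPM. The groups did not overlap, and OIM was 1.83-fold above control (2.12-fold without OIM replicate 2). From counts of 10028 in OIM, 5520 in control and 200 in bFGF, the OIM level was 44.8 times the bFGF level (95% counting interval 38.9 to 51.8), and the control level was 24.9 times it.

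ACTA1 (chr14:60412651-60415687, plus strand) encodes the actin of skeletal muscle. It was a low gene here, with 160, 136 and 167 counts in control, 452, 158 and 491 in OIM, and 0, 4 and 2 in bFGF. OIM replicate 2, at 2.42 CPM, lay within the control range of 2.24 to 2.94 CPM, and the other OIM libraries had 8.34 and 8.60 CPM. The ratio of OIM to control was therefore 2.43 over all libraries, 3.18 without OIM replicate 2 and 0.912 for that library alone. The OIM level was 164 times the bFGF level (95% counting interval 75.1 to 448) and the control level was 69.6 times it (31.7 to 191). These intervals are exact Poisson intervals on summed counts and cover counting error only.

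TAGLN (chr9:44561756-44567385, plus strand) encodes transgelin, or SM22α, an actin-bundling protein abundant in smooth muscle. Control libraries had 2783, 2613 and 2649 CPM, OIM libraries 3103, 2573 and 3100 CPM, and bFGF libraries 792.6, 866.1 and 799.5 CPM. OIM and control overlapped because OIM replicate 2 lay below all control libraries. The mean in bFGF was 819.4 ± 40.6 CPM (SD, n = 3), 3.57-fold below OIM and 3.27-fold below control, a smaller ratio than for ACTA2.

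CNN1 (chr2:70183370-70190756, plus strand) encodes calponin 1, which binds actin and inhibits the ATPase of myosin. Its levels were 219.1, 215.7 and 218.6 CPM in control, 336.9, 244.1 and 329.1 CPM in OIM, and 34.2, 40.4 and 36.3 CPM in bFGF. Every OIM library was above every control library, by 1.39-fold in the mean, and bFGF was 8.21-fold below OIM. CNN1 was also the gene of the 10 whose pattern over the 9 libraries was nearest to that of ACTA2.

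TPM2 (chr1:236402249-236410390, minus strand) encodes β-tropomyosin, which lies along the actin filament and steadies it. The control libraries had 453.8, 450.9 and 447.8 CPM, the OIM libraries 569.0, 434.0 and 540.0 CPM, and the bFGF libraries 217.1, 224.7 and 226.8 CPM. TPM2 had the smallest ratio of the 10 genes, 2.31-fold between OIM and bFGF and 2.02-fold between control and bFGF. OIM replicate 2 lay below the control libraries and the others above.

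LMOD1 (chr10:24165293-24194823, minus strand) encodes leiomodin 1, which nucleates actin filaments in smooth muscle. It had 112.6, 113.4 and 105.0 CPM in control, 149.5, 113.0 and 138.7 CPM in OIM, and 20.0, 24.1 and 20.6 CPM in bFGF. OIM replicate 2 lay within the control range, and bFGF was 6.21-fold below OIM and 5.12-fold below control.

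MYH11 (chr3:7002667-7143093, plus strand) encodes the smooth muscle myosin heavy chain, the motor of the contractile apparatus and its most restricted marker. Control libraries had 132.2, 127.8 and 125.7 CPM, OIM libraries 325.2, 181.9 and 336.7 CPM, and bFGF libraries 5.05, 6.42 and 5.41 CPM. The 3 groups did not overlap. The mean was 128.6 ± 3.3 CPM (SD, n = 3) in control and 281.2 ± 86.2 in OIM, a ratio of 2.19 that became 2.57 without OIM replicate 2 and 1.41 for that library alone. The bFGF mean of 5.63 ± 0.71 CPM was 50.0-fold below OIM and 22.9-fold below control.

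MYLK (chr13:136509878-136809674, plus strand) encodes myosin light chain kinase, the enzyme that starts contraction by phosphorylating the regulatory light chain. It had 283.0, 287.7 and 274.0 CPM in control, 365.7, 277.2 and 374.5 CPM in OIM, and 54.3, 61.8 and 50.7 CPM in bFGF. Its ratios were close to those of LMOD1, at 6.10-fold between OIM and bFGF and 5.06-fold between control and bFGF, and OIM replicate 2 again fell within the control range. MYLK also gives rise to a short product and a non-muscle form, which counts per gene do not separate.

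DES (chr15:121428539-121435426, plus strand) encodes desmin, the intermediate filament protein of muscle cells. It was near the limit of detection except in OIM, with 16, 17 and 37 counts in control, 266, 133 and 298 in OIM, and 1, 4 and 4 in bFGF. The 3 groups did not overlap, and OIM was 10.2-fold above control (12.7-fold without OIM replicate 2, 5.13-fold for that library alone). The OIM level was 69.2 times the bFGF level (95% counting interval 36.2 to 152), and the control level was 7.01 times it (3.49 to 16.0).

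**Figure D3:**
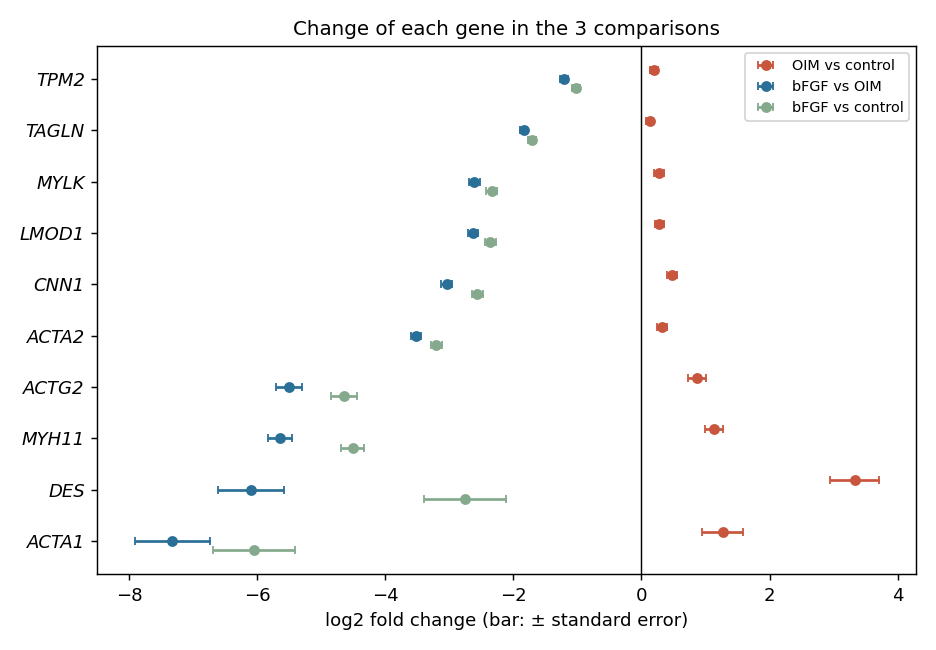
Log2 fold change of each gene with its standard error in OIM against control, bFGF against OIM and bFGF against control, from edgeR. Every value for bFGF is below 0, from -1.02 for TPM2 against control to -7.32 for ACTA1 against OIM, and the OIM values run from 0.13 for TAGLN to 3.33 for DES.

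A gene was called where edgeR's adjusted p was at most 0.05 and the absolute log2 fold change at least 0.5. In bFGF against OIM all 10 genes were called lower, where 18.4% of the 13662 genes tested were, and in bFGF against control all 10 were called lower, where 20.0% of all genes were. In OIM against control 4 were called higher (ACTG2, ACTA1, MYH11 and DES), where 1.49% of all genes were. By the plainer count of groups that did not overlap, 35.8% of all genes had every bFGF library below every OIM library, 37.3% had every bFGF library below every control library, and 14.5% had every OIM library above every control library, against 10, 10 and 4 of the 10 genes. Nothing is read from these counts, since the same values chose the genes. The median log2 fold change of the 10 genes was 0.40 in OIM against control, -3.28 in bFGF against OIM and -2.66 in bFGF against control. The median of all genes lay at -0.00191, -0.00293 and -0.0161 in the same order. All 10 passed the filter on low counts, and ACTA1 and DES could not have passed it from the bFGF libraries alone. Without OIM replicate 2, CNN1 was also called in OIM against control, and ACTA1 was not called there without control replicate 2, without OIM replicate 1 or 3, or with DESeq2.

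The 10 genes together took 0.979% to 1.05% of all gene counts in control, 1.04% to 1.34% in OIM and 0.203% to 0.223% in bFGF. Their make-up differed between bFGF and the other groups. ACTA2 held 63.3% to 65.4% of the counts on the 10 genes in control and OIM but 38.4% to 39.5% in bFGF, whereas TAGLN held 21.9% to 25.4% and 42.8% to 43.3%. For each 100 ACTA2 counts there were 33.4 to 40.0 TAGLN counts in control and OIM and 108.4 to 112.6 in bFGF. MYH11 moved the other way, with 1.85 to 1.93 counts per 100 ACTA2 counts in control, 2.65 to 3.63 in OIM and 0.718 to 0.803 in bFGF.

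**Figure D4:**
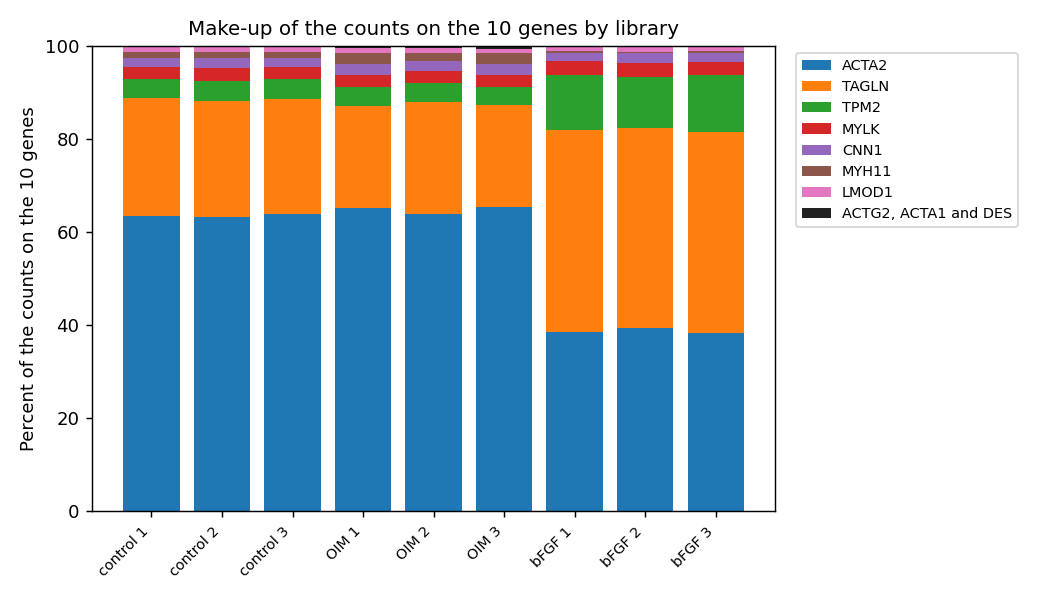
Share of each gene in the counts on the 10 genes, in percent, for each of the 9 libraries. The ACTA2 part is 63.3% to 65.4% in the control and OIM libraries and 38.4% to 39.5% in the bFGF libraries, where the TAGLN and TPM2 parts are larger.

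Levels were compared between genes per kilobase of the union of annotated exons. In control the order was ACTA2 (4837 ± 125 CPM per kb, SD, n = 3), TAGLN (1814 ± 61), TPM2 (153.1 ± 1.0), CNN1 (135.0 ± 1.1), MYLK (30.5 ± 0.76), LMOD1 (30.2 ± 1.3), ACTG2 (21.3 ± 1.3), MYH11 (19.2 ± 0.50), ACTA1 (1.41 ± 0.19) and DES (0.163 ± 0.079). MYLK and LMOD1 did not differ beyond their SD. In OIM, MYH11 (42.0 ± 12.9), ACTG2 (39.0 ± 11.09), MYLK (36.7 ± 5.8) and LMOD1 (36.6 ± 5.1) could not be ordered within their SD, and CNN1 (188.1 ± 31.9) stood beside TPM2 (174.7 ± 24.1). ACTA2 was at 6022 ± 986 and TAGLN at 1979 ± 206 CPM per kb there. In bFGF the mean of TAGLN (554.4 ± 27.5) was above that of ACTA2 (526.3 ± 37.6), with SDs that overlap. TPM2 (75.7 ± 1.7) and CNN1 (22.9 ± 1.9) followed, then MYLK (6.01 ± 0.61) beside LMOD1 (5.89 ± 0.60) and ACTG2 (0.854 ± 0.168) beside MYH11 (0.839 ± 0.106).

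The genes outside the 10 whose pattern was most like that of ACTA2 were THBS2, KCNA6, SFRP2, RASL11B and ADGRD1. Likeness was the mean absolute difference of log2 CPM, each gene centred on its own mean over the 9 libraries, among 8897 genes with a mean of at least 10 CPM. The difference was 0.0869 for THBS2, which encodes the matrix protein thrombospondin 2, and 0.126 for ADGRD1. Among the 10 genes it was 0.249 for CNN1, 0.383 for LMOD1 and 0.392 for MYLK, and it reached 1.12 for ACTA1. Set among the 8897 genes outside the 10, they would rank 25, 52, 54 and 754, so many other genes were more like ACTA2. THBS2 had 983.8 ± 25.6 CPM in control, 1296 ± 203 in OIM and 97.8 ± 5.1 in bFGF (SD, n = 3). SFRP2, a secreted modulator of Wnt signalling, had 377.3 ± 10.6, 398.3 ± 57.6 and 35.0 ± 1.0 CPM.

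Other genes of the contractile cell were followed with a list of 31 contractile partners, of which 30 were in the table and were tested. Most encode proteins of the thin filament, dense body or dense plaque, but the list also holds MYL9, a myosin light chain, CASQ2, a calcium store protein, and KCNMB1, a channel subunit. Of the 30, 27 were called lower in bFGF than in OIM and 27 lower than in control, where 18.4% and 20.0% of all genes were. This list and the lists that follow were chosen with earlier results of these data known. The counts and p-values of the lists are therefore a description and not an independent test. The 27 lower than in OIM include KCNMB1, LDB3, CASQ2 and PDLIM3, on whose calls no weight is put, as given below. FHL2, a LIM-domain protein, was the single member called higher in bFGF in both comparisons, where 17.7% and 18.9% of all genes were. Their median log2 fold change was -1.66 against OIM and -1.56 against control, or -1.46 against control when genes with at most 3 counts in each library of a group are set at the bound that those counts allow. The comparisons with OIM and with control share the bFGF libraries. In OIM against control 3 genes were called higher and 0 lower by edgeR, where 1.49% and 0.864% of all genes were, and the median was 0.15. DESeq2 gave the same counts, and at an unadjusted p under 0.05 there were 18 higher and 1 lower, where 14.2% and 12.0% of all genes were.

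**Figure D5:**
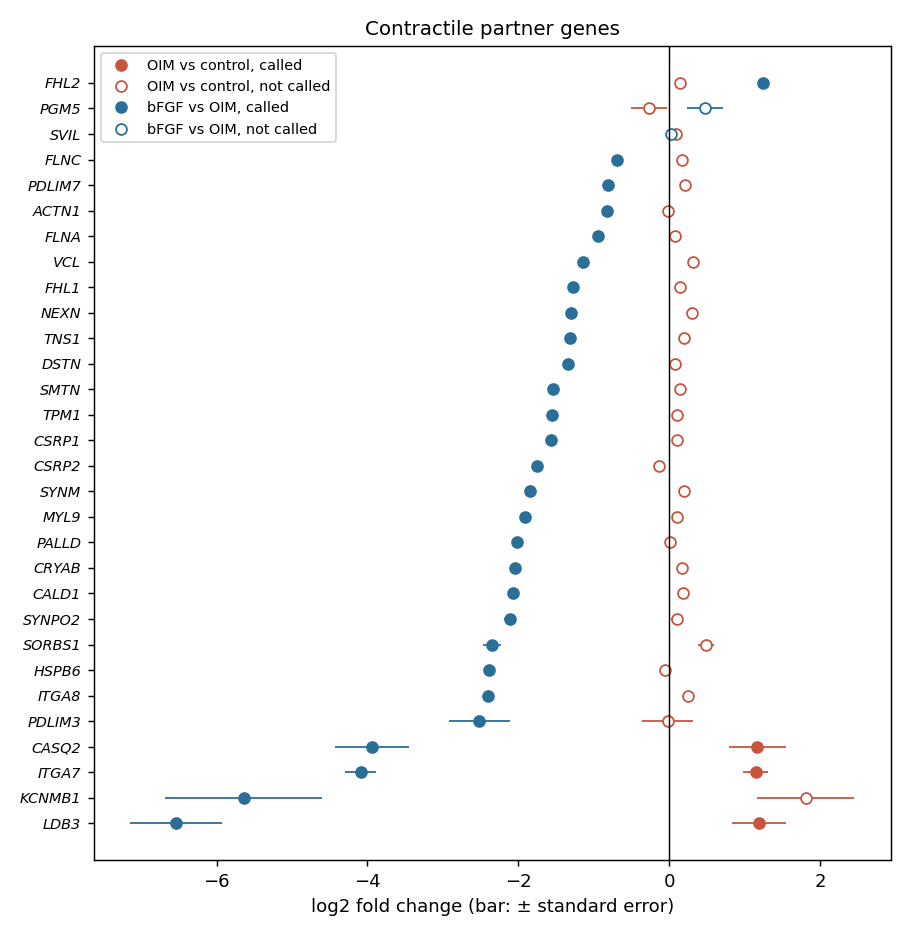
Log2 fold change with standard error of the 30 contractile partner genes tested in OIM against control (red) and bFGF against OIM (blue). Filled points were called; in bFGF 27 genes lie below 0 and are called, FHL2 is called above 0, and PGM5 and SVIL are not called.

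ITGA7, the integrin chain of muscle that binds laminin, was 13.9 ± 1.6 CPM (SD, n = 3) in control, 31.0 ± 9.1 in OIM and 1.81 ± 0.57 in bFGF. It was called higher in OIM than in control (log2 fold change 1.15 ± 0.17, SE, edgeR adjusted p = 6.83e-05) and lower in bFGF than in OIM (-4.09 ± 0.21, edgeR adjusted p = 8.09e-13). It kept the OIM call in all 15 alternatives. LDB3, a Z-disc protein of striated muscle, was called higher in OIM (1.13 CPM in control, 2.58 in OIM, edgeR adjusted p = 0.0298), as was CASQ2, the calcium store protein calsequestrin 2 (0.705 and 1.60 CPM, edgeR adjusted p = 0.0472). LDB3 lost this call without control replicate 1 or 2 and without OIM replicate 1 or 3, and CASQ2 lost it when any library except OIM replicate 2 was left out. In bFGF LDB3 had 4 counts in all, which puts the OIM level at 99.4 times the bFGF level (95% counting interval 38.5 to 366). KCNMB1, the β-subunit of the calcium-activated potassium channel of smooth muscle, had 74 counts in OIM and 1 in bFGF, a ratio of 66.1 with an interval of 11.5 to 2646. It could pass the filter only through OIM, where it was high, so no weight is put on its call, which is 1 of the 27. LDB3, CASQ2 and PDLIM3 (33, 4 and 26 counts in bFGF), also among the 27, passed it through control and OIM and not through bFGF. No weight is put on their calls as lower in bFGF either.

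Chosen after their values were seen, 4 abundant genes of the list are given with their levels. CALD1, which encodes caldesmon, fell from 2135 ± 264 CPM in OIM to 509.9 ± 16.0 in bFGF (SD, n = 3; log2 fold change -2.07, edgeR adjusted p = 2.67e-16). MYL9, the regulatory light chain that MYLK phosphorylates, fell from 592.5 ± 72.7 to 158.0 ± 9.8 CPM (-1.91, edgeR adjusted p = 1.57e-15). TPM1 fell from 2355 ± 225 to 805.4 ± 34.4 CPM and SMTN, which encodes smoothelin, from 241.3 ± 35.2 to 82.9 ± 2.2 CPM. FHL2 rose from 215.1 ± 9.3 to 507.4 ± 14.6 CPM (1.24, edgeR adjusted p = 3.26e-16).

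A list for the control of contraction held 27 genes, all tested, of kinases and phosphatases of the myosin light chain, calcium pumps, channels and stores, and G-protein and cGMP signalling. Between OIM and bFGF 10 of them were called lower and 2 higher, where 18.4% and 17.7% of all genes were, and the median was -0.32. Against control 8 were called lower and 1 higher, where 20.0% and 18.9% of all genes were, and on library totals alone 8 were called lower and 5 higher. DAPK3, a kinase of the light chain and of its phosphatase, was at 170.4 ± 17.1 CPM in OIM and 31.5 ± 1.6 in bFGF (SD, n = 3; log2 fold change -2.43, edgeR adjusted p = 1.72e-17). IRAG1, which links cGMP kinase to the calcium store, fell from 62.7 ± 7.5 to 11.06 ± 0.81 CPM (-2.50, edgeR adjusted p = 6.15e-16), and PLN, the inhibitor of the calcium pump, had 28, 32 and 16 counts in OIM and 1, 7 and 6 in bFGF. It passed the filter through control and OIM and not through bFGF, so no weight is put on its call, which is 1 of the 10 lower. RGS5, a regulator of G-protein signalling that is also a pericyte marker, rose from 0.333 ± 0.033 to 3.36 ± 0.80 CPM (3.33, edgeR adjusted p = 1.95e-08). GUCY1B1, a subunit of guanylate cyclase, was called higher at a log2 fold change of 0.50, the limit of the call. In OIM against control, where 1.49% of all genes were called higher, only RGS2 of the list was called, from 29.4 ± 1.1 to 45.6 ± 2.5 CPM (0.63, edgeR adjusted p = 2.41e-07).

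The non-muscle actomyosin system was followed with 14 genes, and 7 of them were called lower and 1 higher between OIM and bFGF, where 18.4% and 17.7% of all genes were, with a median of -0.53. None was called in OIM against control by edgeR or DESeq2, where 6 were higher and 1 lower at an unadjusted p under 0.05 (14.2% and 12.0% of all genes). MYH10, the heavy chain of non-muscle myosin IIB, fell from 1651 ± 116 to 574.6 ± 16.5 CPM (SD, n = 3; log2 fold change -1.52, edgeR adjusted p = 1.16e-16), and CNN2, calponin 2, fell from 271.3 ± 19.9 to 96.9 ± 1.7 CPM (-1.49, edgeR adjusted p = 3.25e-16). TPM4 also fell (-1.17), while TPM3 rose (0.59). The cytoplasmic actins, named after their values were seen, moved little beside ACTA2. ACTB was at 5538 ± 386 CPM in OIM and 4040 ± 46 in bFGF (-0.46), and ACTG1 was at 5906 ± 194 and 5867 ± 23 CPM (-0.01), so neither was called. On library totals alone the values were -0.23 and 0.21, and neither was called.

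Of 31 genes of striated muscle, 9 passed the filter on low counts. In bFGF against OIM 2 were called higher (MYL4 and TNNI3) and 1 lower (MYBPC2, 27 counts in OIM and 1 in bFGF), where 17.7% and 18.4% of all genes were. MYL4, an atrial myosin light chain, had 2, 7 and 6 counts in OIM and 22, 46 and 25 in bFGF. MYL4 and MYBPC2 could pass the filter only through the groups in which they were high, so no weight is put on their calls. TNNI3 lost its call in several alternatives. TTN, which encodes titin, was at 15.0 ± 1.7 CPM in control, 33.6 ± 1.1 in OIM and 44.6 ± 5.3 in bFGF (SD, n = 3), and was called higher than control in both groups (log2 fold change 1.17, edgeR adjusted p = 1.73e-08, and 1.58, edgeR adjusted p = 1.75e-12). Unlike the 10 genes, TTN did not have its lowest level in bFGF.

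For SRF, its cofactors and regulators, 14 genes were tested, and bFGF had 4 of them called lower and 1 higher against OIM, where 18.4% and 17.7% of all genes were, with a median of -0.10. On library totals alone this became 1 lower and 3 higher, so the balance of the list depends on the scaling. In OIM against control edgeR and DESeq2 called 0, and 7 were higher and 1 lower at an unadjusted p under 0.05 (14.2% and 12.0% of all genes). SRF itself, named after its values were seen, was at 50.8 ± 2.6 CPM in control, 60.6 ± 3.9 in OIM and 55.5 ± 2.0 in bFGF (SD, n = 3). It was not called in any comparison, and its value in bFGF against OIM turned from -0.13 to 0.10 on library totals alone. The coactivator MRTFB was at 66.5 ± 4.9 CPM in OIM and 37.0 ± 2.1 in bFGF (log2 fold change -0.85, edgeR adjusted p = 8.02e-11) and MRTFA was at 72.2 ± 7.0 and 46.1 ± 1.0 CPM (-0.65, edgeR adjusted p = 4.15e-09). MYOCD, myocardin, was low, at 1.47 ± 0.53 CPM in control, 2.25 ± 0.50 in OIM and 1.42 ± 0.38 in bFGF (bFGF against OIM -0.66, edgeR adjusted p = 0.0431). Unlike the 10 genes, its level in bFGF was within the SD of control. TCF21, a transcription factor of fibroblast precursors, rose from 4.74 ± 0.40 to 9.51 ± 0.70 CPM (1.01, edgeR adjusted p = 2.78e-07). On library totals alone, MRTFA and MYOCD were no longer called, with values of -0.42 and -0.44. The call of MYOCD was lost in several alternatives.

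The list for myofibroblast matrix and adhesion held 26 genes. Against OIM, bFGF had 17 of them called lower and 3 higher, where 18.4% and 17.7% of all genes were, with a median of -0.83. Against control 16 were called lower and 3 higher, where 20.0% and 18.9% of all genes were, with a median of -0.75. ASPN, asporin, fell from 232.9 ± 14.5 to 31.9 ± 3.9 CPM (SD, n = 3; log2 fold change -2.87, edgeR adjusted p = 4.18e-18), ITGA11, a collagen-binding integrin chain, from 353.0 ± 46.3 to 77.2 ± 1.2 CPM (-2.19), and SPARC, osteonectin, from 5481 ± 445 to 1565 ± 25 CPM (-1.81). POSTN, which encodes periostin, rose from 599.6 ± 44.4 to 1645 ± 31 CPM (1.46, edgeR adjusted p = 4.02e-16). TGFB1, the growth factor known for driving the myofibroblast state, rose from 14.5 ± 2.5 to 70.0 ± 1.4 CPM (2.27, edgeR adjusted p = 1.09e-14), and CDH2, N-cadherin, was at 41.6, 59.0 and 93.4 CPM in control, OIM and bFGF. CDH2 was the single gene of the 26 called in OIM against control, higher, where 1.49% of all genes were, and 0 were called lower by edgeR or DESeq2. The median there was 0.03, and at an unadjusted p under 0.05 there were 8 higher and 6 lower, where 14.2% and 12.0% of all genes were. The OIM call of CDH2 was lost without control replicate 2 (0.44) and without OIM replicate 2 (0.48), and in the latter case 1 other gene was called lower.

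Desmin was set beside other intermediate filament genes, of which 5 of 8 passed the filter. Between OIM and bFGF 2 rose and 2 fell, where 17.7% and 18.4% of all genes were called. SYNM, synemin, a partner of desmin that is also 1 of the 27 contractile partners called lower, fell from 110.3 ± 12.3 to 30.7 ± 0.6 CPM (SD, n = 3; log2 fold change -1.84, edgeR adjusted p = 1.41e-15), and SYNC, syncoilin, fell from 61.4 ± 4.7 to 23.6 ± 1.4 CPM (-1.38). NES, nestin, rose from 31.1 ± 7.1 to 207.0 ± 5.0 CPM (2.73, edgeR adjusted p = 2.92e-15), and VIM, vimentin, from 5695 ± 322 to 9008 ± 87 CPM (0.66). None of the 5 was called in OIM against control by edgeR or DESeq2, where 2 were higher and 2 lower at an unadjusted p under 0.05 (14.2% and 12.0% of all genes).

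Markers of the cell types that a valve culture could hold moved as well. The 7 interstitial markers summed to 53991 to 58668 CPM in control, 50376 to 52776 in OIM and 30587 to 30852 in bFGF, mostly from COL1A1 and COL1A2. The means of COL1A1, COL1A2, DCN and PDGFRA were lowest in bFGF. Those of VIM (6248, 5695 and 9008 CPM in control, OIM and bFGF) and PDGFRB (316.9, 328.4 and 359 CPM) were highest there. LUM had 742.6, 656 and 661.2 CPM, so the sum does not describe each marker. The 8 endothelial markers, none of them at 0 in every library, summed to 71.3 to 74.1, 85.4 to 87.8 and 167.8 to 178.1 CPM in the same order. Most of this was ERG (51.5, 66.8 and 137.4 CPM on average), and the means of PECAM1 (12.8 in control and 20.7 CPM in bFGF), CDH5 (5.89 and 8.24), EMCN (0.911 and 2.95), TEK, KDR and CLDN5 were also higher in bFGF than in control. Of the 8, only VWF had a lower mean (0.479 and 0.228 CPM). The 6 pericyte markers summed to 309.8 to 346.9, 307.5 to 329.5 and 367.4 to 369.5 CPM, with NOTCH3 (75.6, 51.6 and 9.13 CPM), KCNJ8 and ABCC9 lower in bFGF and RGS5 and CSPG4 higher. The 8 leukocyte markers summed to 13.0 to 16.3, 14.1 to 15.7 and 8.25 to 8.79 CPM, nearly all CD14, with CD3E and MS4A1 at 0. The 5 epithelial markers in the table summed to at most 0.169 CPM, and KRT5 and KRT15 were at 0. The part of these shifts in the levels of the 10 genes was not tested.

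The same table holds circRNAs and non-coding transcripts, which were not used to choose the genes. Of 6179 circRNAs, 3 lay at the 10 loci, all of them at ACTA2, and each had counts in a single library (2, 4 and 5 counts). Only circRNA_2188, with 4 counts, is on the minus strand of ACTA2, and circRNA_2187 and circRNA_2189 are on the plus strand. All of these counts are too few for a comparison between groups. Non-coding transcripts overlapped MYH11, LMOD1 and MYLK, each on the opposite strand. At MYLK this was LOC102157484 (chr13:136800693-136834051, minus strand), which overlaps the end of the gene by 8982 bases and is split into 4 transcripts with estimated counts.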

How the data were processed

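RNA of 9 PVIC libraries was sequenced in 3 groups of 3, taken from the sample labels, which name no batch. The sources differ on the making of the files: the labels name a stranded kit that depletes ribosomal RNA and, in the submitters' processing notes, Trimmomatic, HISAT2, StringTie and Sscrofa11.1, whereas the methods of the study name poly-A selection, Cutadapt and STAR on susScr11. The counting program and its use of strand are not given in the sources used here. The authors deposited 1 table of counts without normalization. The deposited gene part holds whole-number counts, and the authors gave the non-coding part as estimated counts that need not be whole. It also has 19 columns without a name or value, which were not used. Gene symbols that had been altered to dates were kept as they stand.

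Genes were kept by filterByExpr (13662 of 19535), scaled by TMM and fitted with the edgeR 4.0.16 quasi-likelihood model on 3 groups in R 4.3.3 (6 residual degrees of freedom, common biological coefficient of variation 0.0602). P-values were adjusted by Benjamini-Hochberg across the genes tested. The floor was set at 3 counts per library. Alternatives were no filter, a replicate block, fits on 2 groups, leaving out each library in turn, library totals alone, median-of-ratios scaling and DESeq2 1.42.0. The test was checked on simulated counts. No pair of libraries agreed within sampling noise (mean chi-square per gene 4.64 to 18.4). Members, lists and the naming rule were chosen with earlier results of these data known. The rule names the 10 genes, at most 3 called genes per list, direction and comparison with a mean of at least 10 counts, and the 5 genes most like ACTA2. Older symbols stand in the table for 6 genes, such as MKL1 for MRTFA. Sequences were read from Sscrofa11.1 with RefSeq gene models, and the promoter of 1 of the 10 genes is not reported here.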

Additional observations from a re-analysis of the deposited data

Results flagged for a closer look

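Non-coding transcripts were outside the comparisons, and for 2 of the 4 transcripts of LOC102157484, which lies antisense across the end of MYLK, every library of a treated group lay above every control library. Among the 1520 non-coding transcripts with a mean of at least 10 estimated counts, 13.6% lay so in bFGF and 6.84% in OIM, and 19.3% and 6.18% lay below every control library. XR_001300519.2 averaged 2.49 CPM in bFGF and 1.18 in control, with bFGF libraries at 2.40, 1.52 and 3.55 CPM and control libraries at 1.29, 1.08 and 1.16 CPM. XR_001300526.2 averaged 0.835 CPM in OIM and 0.387 in control, with OIM libraries at 0.95, 0.589 and 0.965 CPM and control libraries at 0.503, 0.460 and 0.199 CPM. Its bFGF libraries, at 0.0895, 0.114 and 0.164 CPM, all lay below the control libraries. So did those of XR_001300528.2, at 0.431, 0.127 and 0 CPM against 1.54, 0.436 and 0.512 in control, while XR_002337871.1 ranged from 0.00217 to 1.38 CPM over the 9 libraries. Summed over the 4 transcripts, bFGF (3.10, 3.07 and 3.77 CPM) and OIM (3.48, 2.81 and 2.74) overlapped control (3.33, 2.15 and 2.39). These are estimated counts divided among isoforms of 1 gene, and these differences were not tested. Reads of MYLK and of this transcript cannot be told apart where they overlap unless strand was used in counting.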

How the results depend on the processing

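The levels of the 10 contractile genes chose them, so their calls under the alternatives are not read as stability. No log2 fold change of the list genes named by the rule changed sign. With library totals alone the median of all genes shifted to 0.22 in bFGF against OIM and 0.21 against control, and the share of calls that were higher went from 49.0% to 68.8% and from 48.5% to 68.1%. That setting also raised the number of contraction control genes called higher in bFGF against control from 1 to 5 and turned SRF and its cofactors from 4 lower and 1 higher to 1 lower and 3 higher against OIM, and from 2 lower and 1 higher to 0 lower and 4 higher against control. The 3 contractile partner genes called in OIM against control became 1 to 4 when 1 library was left out, at 1 without control replicate 2, OIM replicate 1 or OIM replicate 3. The numbers of the replicates did not pair the libraries (correlations of deviations -0.032 to 0.0035), and with a replicate block that count was 2. Of 959 values for single genes of the lists under alternatives, 36 lost their call and the others kept it. TNNI3, GUCY1B1 and MYOCD lost it in bFGF against OIM in several. In the bFGF libraries ACTA1 and DES had at most 4 counts each, so their folds have wide counting intervals.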
